A study of Arabidopsis thaliana with 6 samples.

Results

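The group C and group S1 bZIP factors of Arabidopsis were followed in rosettes that had been kept under water in the light. The 9 loci were chosen by their names and family groups, and are bZIP9 (AT5G24800), bZIP10 (AT4G02640), bZIP25 (AT3G54620) and bZIP63 (AT5G28770) of group C, and bZIP1 (AT5G49450), bZIP2 (AT2G18160), bZIP11 (AT4G34590), bZIP44 (AT1G75390) and bZIP53 (AT3G62420) of group S1. A probe set was assigned to a locus through the annotation of the array, and 2 of the 9 loci, bZIP44 and bZIP53, had one, among 13286 genes named in this way on the array. No probe set was named here for the 4 group C loci or for the other 3 group S1 loci, and these 7 genes were therefore not analysed here.

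Four-week-old wild-type Col-0 plants, grown in long days, gave 3 arrays after 48-h light submergence and 3 control arrays from untreated plants harvested at 0 h. The plants carried no transgene or mutation, and each replicate was collected from 3 plants. As the controls were harvested before the treatment, submergence, a lower light intensity stated in the methods and 48 h of additional age cannot be told apart. The arrays were Affymetrix ATH1 chips, on which each transcript is read by a set of short probes, and the values are log2 signals from MAS 5.0, in which 1 unit is a doubling.

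Basic leucine zipper (bZIP) factors bind DNA as dimers, with a basic region that contacts the DNA and a leucine zipper that holds the partners together. Group C factors preferentially pair with group S1 factors, and the pairs act downstream of SnRK1, the plant kinase that is switched on when energy or sugar runs short. SnRK1 phosphorylates bZIP63, and C/S1 dimers activate genes of amino acid breakdown and asparagine synthesis, such as those for proline dehydrogenase and ASN1. Translation of S1 mRNAs is repressed by sucrose through a conserved upstream reading frame, so mRNA and protein of these factors need not move together. Protein was not measured on these arrays.

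The transcripts of both measured S1 members were higher after 48-h light submergence than in the control. The 2 genes rose among 4159 probe sets called higher, which is 18.3% of the 22746 tested. A probe set was called changed when limma, fitted over all probe sets, gave an adjusted p under 0.05 and the difference was at least 1.5-fold.

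bZIP44 is an S1 factor known for its part in seed germination. Its probe set had log2 signals of 9.69, 9.03 and 9.00 on the submerged arrays, against 7.06, 6.64 and 7.06 on the control arrays. The groups did not overlap, with 1.94 log2 units between the lowest submerged and the highest control array, and submergence replicate 1 stood highest. The means were 9.24 ± 0.39 (SD, n = 3) after submergence and 6.92 ± 0.24 (SD, n = 3) in the control, which is a 5.01-fold increase (95% confidence interval 3.40 to 7.37). On the log2 scale limma put the difference at 2.32 with a standard error of 0.25 and an adjusted p of 3.18e-05.

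bZIP53 is the S1 factor best known for heterodimers with bZIP10 and bZIP25, through which it activates seed maturation genes and, under hypo-osmolarity or starvation, proline dehydrogenase. Its probe set had log2 signals of 12.51, 12.46 and 11.95 on the submerged arrays, against 10.75, 10.55 and 10.65 on the control arrays. Again the groups did not overlap, the gap being 1.20 log2 units, and submergence replicate 3 was the lowest of the submerged arrays. The means were 12.31 ± 0.31 (SD, n = 3) after submergence and 10.65 ± 0.10 (SD, n = 3) in the control. This is a 3.15-fold increase (95% confidence interval 2.41 to 4.13). On the log2 scale the difference in limma was 1.66, its standard error 0.17 and its adjusted p 2.66e-05.

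**Figure D1:**
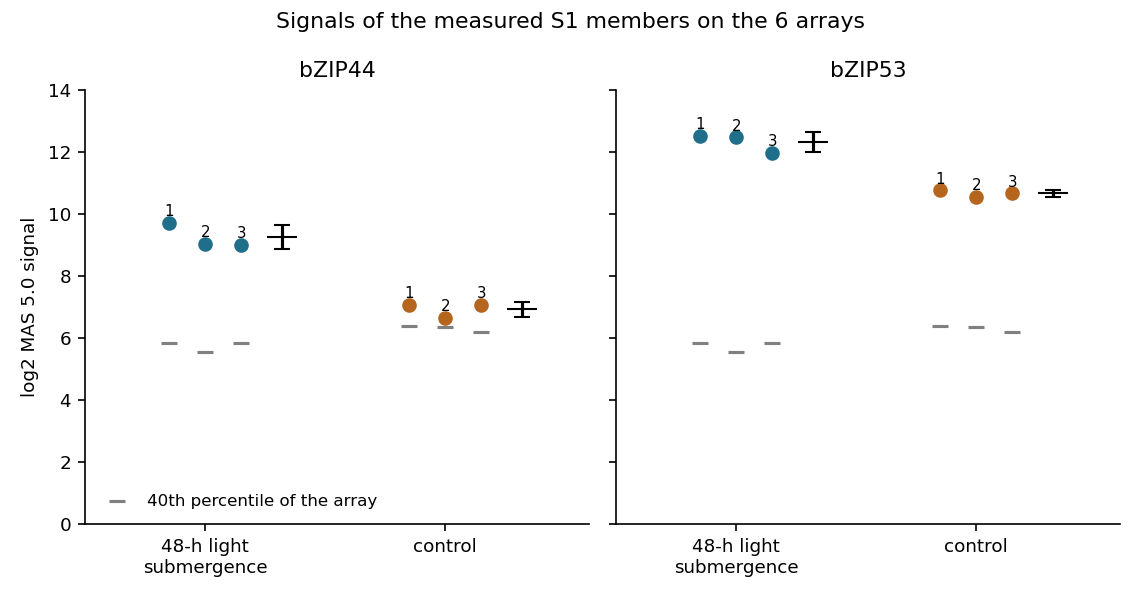
Log2 MAS 5.0 signal of bZIP44 and bZIP53 on each of the 3 arrays after 48-h light submergence and the 3 control arrays, numbered by replicate, with the mean and SD beside them as a bar. Grey ticks give the 40th percentile of each array, and both genes lay above it on all 6 arrays, with bZIP44 on the control arrays only 0.29 to 0.89 log2 units above it.

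In linear signal, bZIP44 averaged 622 after submergence and 122 in the control, and bZIP53 averaged 5150 after submergence and 1610 in the control. The 2 probe sets differ in their probes, so the 2 levels cannot be ranked against each other. As no detection calls were used here, the 40th percentile of each array served as background, at log2 values of 5.55 to 5.84 on the submerged arrays and 6.17 to 6.39 on the control arrays. bZIP44 lay 3.18 to 3.85 log2 units above it after submergence, and 0.29 to 0.89 units in the control. bZIP53 was well above it throughout, by 6.12 to 6.91 units after submergence and by 4.20 to 4.48 units in the control. The control level of bZIP44 was therefore close to the background, whereas that of bZIP53 was not.

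The median log2 fold change of all probe sets was -0.26 as deposited, and relative to this median bZIP44 had changed by 2.58 and bZIP53 by 1.91. Of the 13286 genes represented by 1 probe set each, 94.7% had a smaller log2 fold change than bZIP44 and 90.6% a smaller one than bZIP53. Within each array, the log2 signal of bZIP44 minus that of bZIP53 was -2.82, -3.43 and -2.95 after submergence, against -3.69, -3.91 and -3.59 in the control. In the deposited signals the change of bZIP44 thus exceeded that of bZIP53 by 0.67 log2 units, with no overlap between the groups. The size of this excess depends on the control signals of bZIP44, which lay close to background. With an offset of 32 added to the linear signals, the log2 fold changes were 2.06 for bZIP44 and 1.64 for bZIP53. An exact two-sided permutation test over the 6 arrays gave p = 0.1, the smallest p that 3 arrays against 3 allow, so this test cannot pass a 0.05 threshold with 3 arrays per group.

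The tissue was checked by marker genes, few of which had a named probe set, as 8730 of the 22746 probe sets carried no name in the annotation used. Of 10 leaf markers, 2 were measured: the rubisco activase gene RCA and LHCB4.1, an antenna protein gene of photosystem II, and both lay above background on all 6 arrays. Their summed linear signal was 22100 to 34600 after submergence and 62500 to 79400 in the control, and both genes fell. PYK10, the 1 of 6 root markers measured, was above background on no submerged array and on 1 of 3 control arrays, with linear signals of 16.8 to 36.8 after submergence and 30.1 to 86.8 in the control. FAMA and ACR4, 2 of 6 guard cell and epidermis markers, summed to 62.9 to 227 after submergence and 227 to 313 in the control, and none of the 4 phloem markers was measured. ACR4 was called lower, by at least 1.72-fold, and was above background on no submerged array and on 2 of 3 control arrays. For FAMA no change was called (difference -0.56, limma's adjusted p = 0.389). The part of a changed cell composition in the increases of bZIP44 and bZIP53 was not tested, and in whole rosettes a smaller share of a cell type and less transcript per cell cannot be told apart.

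The kinase upstream of these factors is a complex of a catalytic α subunit, a β subunit that sets location and partners, and a regulatory γ subunit. Of 10 loci for SnRK1 subunits and their activating kinases, 3 had a named probe set, all for β subunits. They differed in direction, as 1 rose, 1 fell and for 1 no change was called, and the median log2 fold change was 0.18. In comparison, 15.7% of the 13286 genes were called higher and 22.6% lower, and their median was -0.29. KINβ1 (AKINBETA1) rose to log2 signals of 12.03, 11.98 and 12.04 on the submerged arrays, against 9.33, 8.82 and 8.90 on the control arrays. The increase was 8.02-fold (95% confidence interval 6.27 to 10.3), with an adjusted p of 3.79e-07 in limma, and the submerged arrays had an SD of only 0.04 log2 units.

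KINβ2 had signals of 9.06, 8.71 and 8.82 after submergence and 9.62, 9.48 and 9.44 in the control. All submerged arrays lay below all control arrays, and the log2 difference of -0.65, with limma's adjusted p at 0.00701, was just past the 1.5-fold threshold. Without submergence replicate 2 it was -0.57 and the call was lost. KINβ3, an unusual β subunit that lacks the N-terminal part of the others, had signals of 9.23, 9.37 and 8.90 after submergence and 9.09, 8.97 and 8.89 in the control, and the groups overlapped (difference 0.18, limma's adjusted p = 0.445).

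The catalytic subunit genes KIN10 and KIN11 and the subunit gene KING1 could be named only through the study's own list of genes that changed on the same arrays, of which a shortened copy, holding increased genes only, was used. They had thus been selected on their increase, and their values are given without a test. KIN10 had log2 signals of 10.18, 10.05 and 9.96 after submergence and 9.42, 9.36 and 9.20 in the control. KIN11 had 11.72, 12.37 and 11.56 after submergence and 9.68, 9.59 and 9.85 in the control. For KING1 the signals were 11.83, 11.64 and 12.16 after submergence and 9.78, 9.74 and 10.00 in the control.

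Genes that starvation, darkness or SnRK1 are known to induce, several of them C/S1 targets, were higher in every measured case. Of 21 loci in this list, 7 had a named probe set, and 7 of 7 were called higher, against 15.7% of all 13286 genes, with a median log2 fold change of 3.75. The list was written with earlier results of these data known, so this count is a description and not an independent test. All 7 were above background on 2 or more control arrays, and among genes kept by a filter on dim probe sets the share called higher was 26.5%, with 34.9% lower. At a 2-fold threshold 6 of the 7 were called, without D2HGDH. At5g38710, which the gene tables used here do not name, had the largest change of the 7. Its log2 signals were 11.36, 11.99 and 11.27 after submergence and 6.74, 6.75 and 6.08 in the control, a 32.4-fold increase with an adjusted p of 2.35e-07 in limma, with control replicate 3 below background. At3g15450, annotated as an aluminium-induced protein, had 14.46, 14.36 and 14.26 after submergence and 10.03, 9.64 and 10.23 in the control, which is 21.0-fold higher.

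The breakdown of branched-chain amino acids was represented by IVD, MCCA and MCCB, whose enzymes act on leucine, and by ETFQO, which passes electrons from this pathway to the respiratory chain. IVD rose 16.1-fold and MCCA 13.5-fold, while MCCB rose 3.03-fold and ETFQO 3.13-fold. D2HGDH, whose enzyme feeds electrons into the same carrier, rose least, at 1.78-fold (limma's adjusted p = 0.00603), with signals of 9.64, 9.87 and 10.09 after submergence and 9.42, 8.83 and 8.87 in the control.

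**Figure D2:**
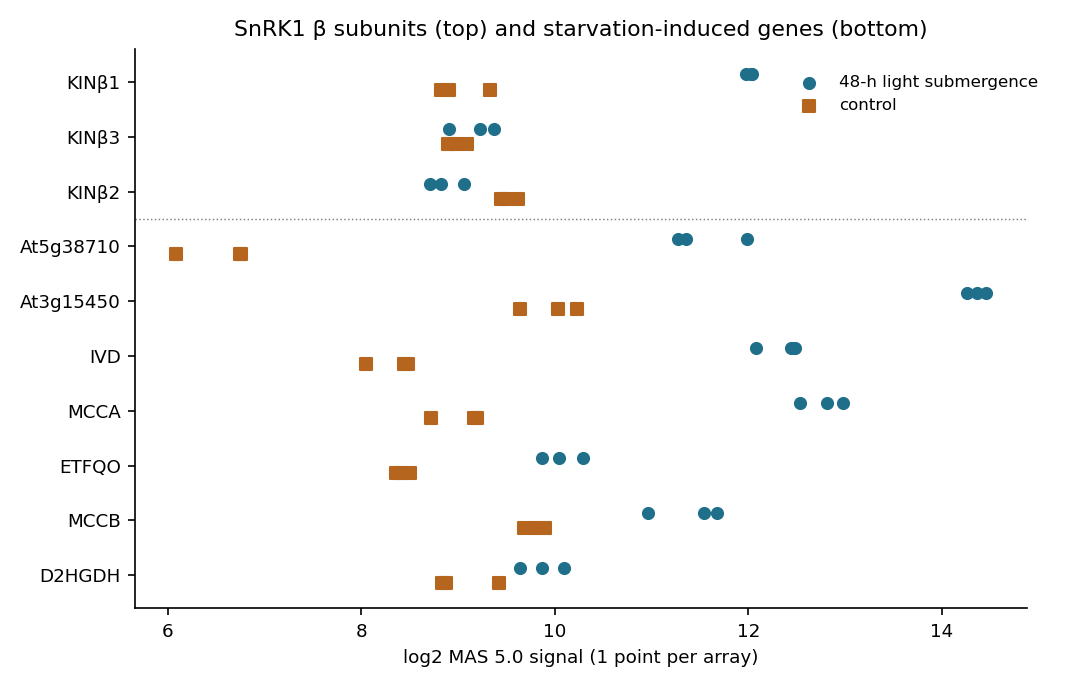
Log2 MAS 5.0 signal on each of the 3 arrays after 48-h light submergence (circles) and the 3 control arrays (squares) for the 3 measured SnRK1 β subunit genes and the 7 measured starvation-induced genes. The groups are separate for all 7 induced genes and for KINβ1 and KINβ2 but not for KINβ3. The share of all genes with separate groups was not counted. Separate groups were common, as 11 of 13 bZIP genes outside groups C and S1 that were above background on 3 or more arrays had them. Of these 13 genes, 5 were called higher and 2 lower, so separate groups alone do not mark a called change.

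A further 7 genes of the starvation list carried a name only through the study's list of changed genes, and had likewise been selected for their change. For the 5 of them above background on 2 or more control arrays, the log2 differences ranged from 3.02 to 6.75, while ASN1 and BCAT2 were above background on no control array. ASN1, asparagine synthetase and a classical target of bZIP11 and bZIP1, had log2 signals of 12.44, 13.48 and 13.04 after submergence and 4.49, 5.79 and 5.51 in the control. ProDH1, the proline dehydrogenase gene that bZIP53 activates, had 13.49, 13.55 and 13.42 after submergence and 7.07, 6.16 and 6.97 in the control. Both genes were thus far brighter on the submerged arrays, but as they were named by this change no test is given.

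Trehalose-6-phosphate, the sugar phosphate that inhibits SnRK1, is made by a synthase and removed by phosphatases. The list held genes of the synthase (TPS) and phosphatase (TPP) families. None of the 18 loci in this list had a probe set named by the annotation. The study's list named 4 of them, TPS8, TPS9, TPS10 and TPPD, again by their change. TPS1 was not among them. Trehalose-6-phosphate and enzyme activity were not measured, so these signals give no level of the sugar phosphate. TPS8 had log2 signals of 11.76, 11.97 and 11.90 after submergence and 8.24, 8.94 and 9.08 in the control. TPS10 had 10.20, 10.39 and 10.24 after submergence and 7.53, 7.85 and 7.29 in the control.

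Among the bZIP genes outside groups C and S1, calls in both directions were made. Of 54 such loci 19 were measured, of which 5 were called higher, 3 lower and 11 not changed in either direction, and the median log2 fold change was 0.52. Over all 13286 genes, 15.7% were called higher and 22.6% lower. In the order of log2 fold change over the 21 measured bZIP genes, bZIP44 lay between bZIP60 at 2.81 and bZIP28 at 2.21. Its 95% confidence interval, 1.77 to 2.88 on the log2 scale, included both values, so these neighbours were not separated. The interval of bZIP53, 1.27 to 2.05, overlapped that of bZIP28, 1.78 to 2.65, and lay below that of bZIP60, 2.43 to 3.18. The differences of bZIP53 from these genes were not tested. Its order relative to bZIP24, for which only a lower limit was obtained, is not known.

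Of the 5 that rose, bZIP60, bZIP28 and bZIP17 are factors of the unfolded protein response in the endoplasmic reticulum, a grouping made after the values had been seen. bZIP60, whose mRNA is spliced by IRE1, had log2 signals of 11.90, 12.24 and 11.64 after submergence and 9.07, 9.10 and 9.20 in the control, a 6.99-fold increase with an adjusted p of 7.4e-07 in limma. bZIP28, a membrane-anchored factor, rose 4.64-fold and bZIP17, a second one, 1.70-fold, which is no longer called at a 2-fold threshold. bZIP24, a factor of the salt response, was above background on none of the control arrays and was at least 2.69-fold higher, taking background as the lower limit. bZIP30, of group I, rose 1.89-fold.

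Of the 3 genes called lower, bZIP61 and bZIP52 were above background in the control. The group E gene bZIP61 had log2 signals of 1.75, 0.92 and 4.86 after submergence and 8.12, 8.17 and 8.12 in the control. All 3 submerged arrays lay at or under background, and the decrease was at least 5.27-fold, with limma's adjusted p at 0.000609. bZIP52, of group I, was at least 2.60-fold lower. bZIP34, the other group E gene measured, passed the test but was above background on no array, so no decrease or fold is given for it, and with a filter on dim probe sets 2 genes were called lower.

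Group S also holds genes outside S1, and of these bZIP42, bZIP43, bZIP48 and bZIP58 were measured, and 0 of 4 were above background on any array or passed the test. Their log2 fold changes ran from -2.12 to 1.06 with standard errors of 0.92 to 1.13, so a change of several-fold could not have been detected for them. HYH, the homolog of the light-signalling factor HY5, had signals of 6.72 to 7.50 after submergence and 5.75 to 6.55 in the control (difference 1.05, limma's adjusted p = 0.0581). bZIP19, a sensor of zinc deficiency, overlapped between the groups, with a log2 fold change of -0.12. Another 6 loci, GBF3, GBF4, ABF4, TGA3, TGA7 and bZIP16, were named only by the study's list of changed genes and enter no count.

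**Figure D3:**
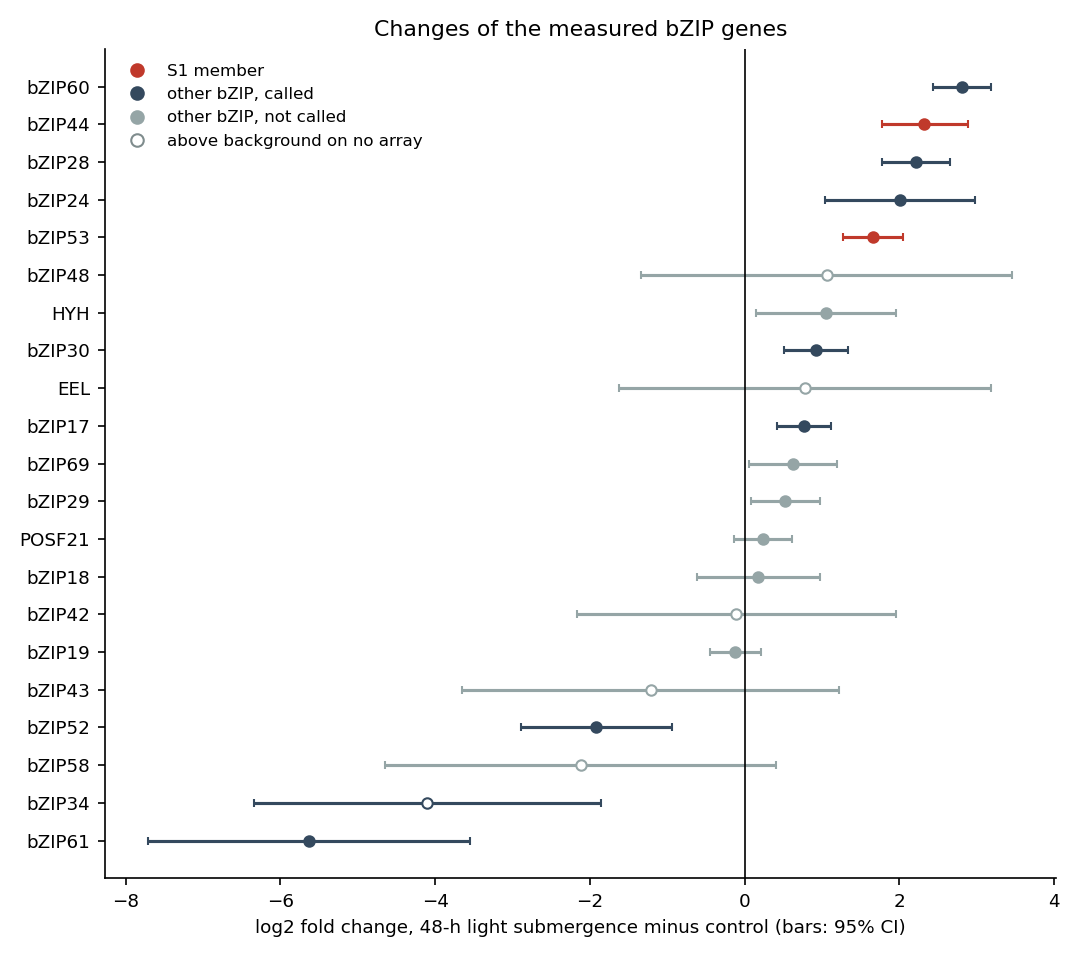
Log2 fold change, 48-h light submergence minus control, of the 21 measured bZIP genes, with 95% confidence intervals from limma (3 arrays per group). For bZIP24, bZIP52 and bZIP61 the lower group was above background on no array. Their points are limma's estimates, and the text gives only a lower limit of the change. By their estimates, the S1 members bZIP44 and bZIP53 lie among the 5 highest of these 21. Open circles mark genes above background on no array, whose intervals are wide. The 6 bZIP genes named only by the study's list of changed genes, with log2 differences of 0.56 to 3.36, are not drawn.

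The genes most like each member in their signals over the 6 arrays were found by the root mean square distance of log2 signals, each centred on its own mean, among 6428 candidate genes that lay above the background on 2 or more arrays of both groups. With 2 conditions, this distance mainly reflects a similar size of change. The nearest genes were picked on these same 6 signals, so a shared order of replicates partly follows from the selection. Nearest to bZIP44 were PUB24, a U-box ubiquitin ligase gene, at 0.158 log2 units, At2g29995 at 0.161 and At5g16110 at 0.163. PUB24 had log2 signals of 9.39, 9.06 and 8.95 after submergence and 7.29, 6.52 and 7.05 in the control, with submergence replicate 1 highest and control replicate 2 lowest, as for bZIP44.

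Nearest to bZIP53 were At5g04170 at 0.060, At3g29170 at 0.071 and At4g10925 at 0.079. At5g04170 had signals of 10.92, 11.06 and 10.45 after submergence and 9.33, 9.07 and 9.21 in the control, with submergence replicate 3 the lowest of the submerged arrays, as for bZIP53. The members themselves were 0.393 log2 units apart, with 203 genes nearer to bZIP44 than bZIP53 was, and 680 genes nearer to bZIP53 than bZIP44 was.

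**Figure D4:**
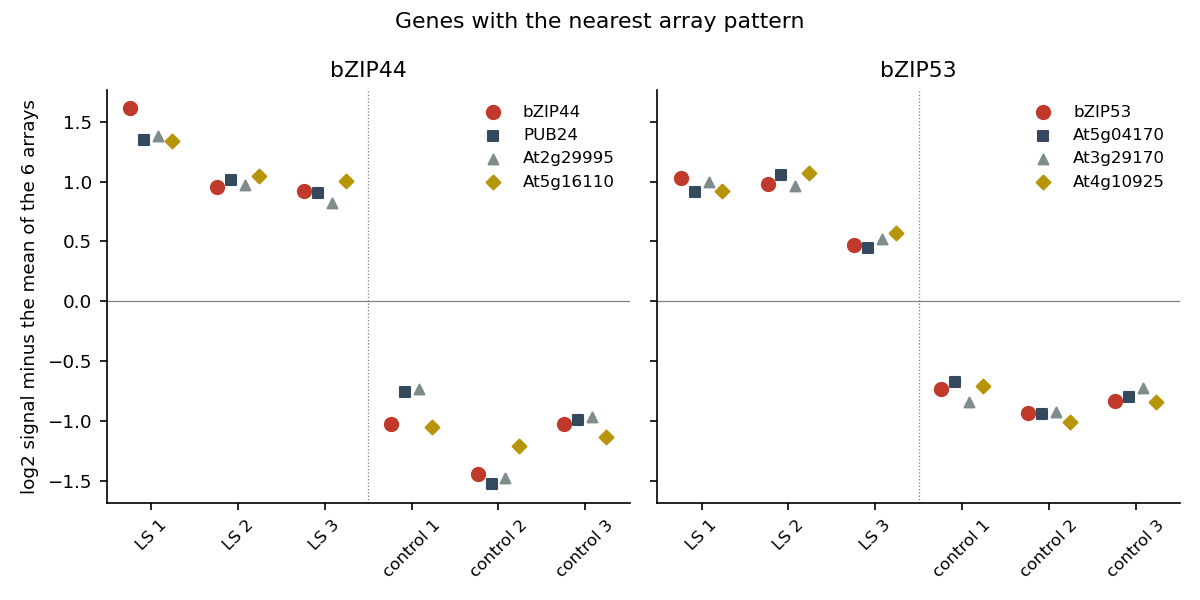
Log2 signal minus the gene's mean over the 6 arrays, for bZIP44 and bZIP53 (red circles) and the 3 genes nearest to each, on the 3 arrays after 48-h light submergence (LS) and the 3 control arrays. Submergence replicate 1 is the highest array for bZIP44 and its 3 nearest genes, and submergence replicate 3 is the lowest submerged array for bZIP53 and its 3 nearest genes. These shared orders partly follow from picking the genes on the same 6 signals.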

How the data were processed

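RNA from rosettes was hybridised by the authors to 6 ATH1 arrays, and probe sets were summarised with MAS 5.0 (version not given in the sources used here). What they deposited is 1 log2 signal per probe set and array, with linear trimmed means of 495.2 to 496.3. The labels name leaves and Trizol, and the methods rosettes and an RNeasy kit. Samples were grouped by the deposited labels.

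All 22746 probe sets were fitted with limma 3.58.1 (R 4.3.3), using moderated variances, a trend with mean signal and no replicate block, and p-values were adjusted by the Benjamini-Hochberg method over all of them. The fit was also run on simulated arrays with known changes, and no result here rests on that run. The annotation named 13513 probe sets by 1 gene, 13436 of which matched a TAIR10.1 locus. A gene was represented by its probe set of highest mean signal. A fold against a group below background was computed against the 40th percentile of each array. Same-numbered arrays did not pair (correlations of deviations -0.01 to 0.06).

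The members and gene lists were chosen with earlier results of these data known. The text names every measured member and the 3 genes nearest to each. A limit of 4 changed genes per list and direction had been planned, but all called genes of each list are named. Genes that did not pass, genes named by the study's list of changed genes (the first 1998 rows, used for names only) and the subgroups of bZIP genes were picked after their values had been seen. As alternatives, arrays were quantile-normalised or centred on the 75th percentile, and the fit was repeated with an offset of 32, a filter on dim probe sets, no variance trend, a replicate block, a 2-fold threshold, the 25th percentile as background, and leaving out each array. Plots were made in Python 3.11.15 (matplotlib 3.10.9). No sequences were used here.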

Additional observations from a re-analysis of the deposited data

How the results depend on the processing

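bZIP44 and bZIP53 were called higher under all 13 alternatives, with log2 fold changes of 2.06 to 2.53 for bZIP44 and 1.56 to 1.84 for bZIP53. Their highest adjusted p was 0.00236 and 0.00342, both without the variance trend. With the replicate number as a block the values were 2.32 and 1.66, and the replicate block changed no call. At a 2-fold threshold, the SnRK1 genes called lower numbered 0 and the other bZIP genes called higher 3. When 1 array was left out, the SnRK1 genes called lower ranged from 0 to 1, as KINβ2 was lost without submergence replicate 2. Over 31 genes and their alternatives, 385 of 397 values kept their call, 5 lost it, 7 gained it and no called change turned. HYH, bZIP69 and bZIP29 were the genes that gained a call. Quantile normalization moved the median of all probe sets to 0.02. Neither member had a second probe set, so that alternative gave no value. With 3 arrays per group the number of arrays limits the precision, and genes near background have only bounds.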
